A study of Mus musculus with 4 samples.

Results

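The satellite glia genes described here are *Fabp7*, *Apoe*, *Kcnj10*, *Glul*, *Slc1a3*, *S100b*, *Sox10* and *Gfap*, 8 of the 17667 genes listed in at least 1 library. The rule names them as genes of satellite glia and uses no measured value, although earlier results of these data were known when they were chosen. All 8 were listed in all 4 libraries and all 8 were among the 14156 genes with enough reads to be tested. RNA-seq was measured in sympathetic ganglia (SG) from thoracic levels T1 to T4 of C57BL/6 mice. All mice were 12 weeks old and had been kept at 5 °C for 1 day. The 4 libraries, each a pool from 6 mice, were WT_1 and WT_2 from wild-type mice, 1 from mice haploinsufficient for TRKC (TRKC+/-), the receptor for neurotrophin-3 (NT-3), and 1 from mice with NT-3 overexpressed in adipocytes under the adiponectin promoter (AdNTF3-Tg). Cold exposure was common to all 4 pools, and each mutant genotype was a single pool, so the spread among mice of 1 genotype cannot be seen within a library. The study gives each mutant line its own WT controls, but the labels do not tie a WT pool to either mutant, and each mutant was therefore set against both.

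Satellite glial cells are the neural-crest-derived glia of sensory and autonomic ganglia. They wrap the body of each neuron in a thin sheath, take up the potassium and transmitter released there, and pass lipid to the neuron. In SG they are the main glial cell, beside the Schwann cells of the nerve fibres that run through the ganglion. SOX10 keeps cells in the peripheral glial lineage. The inward rectifier Kir4.1, encoded by *Kcnj10*, buffers potassium, the transporter encoded by *Slc1a3* takes up glutamate and glutamine synthetase, encoded by *Glul*, converts it to glutamine. *Fabp7* encodes the brain lipid-binding protein and *Apoe* the lipid carrier apolipoprotein E. *S100b* encodes a calcium-binding protein, and *Gfap* an intermediate filament protein that is known to rise in satellite glia after nerve injury.

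None of the 8 genes passed the test between a mutant and WT. *Apoe* was among the most abundant mRNAs of the ganglion, and *Slc1a3* was the lowest of the 8. The WT pools differed from each other by more than either mutant differed from the WT mean in *Fabp7*, *S100b*, *Slc1a3*, *Glul* and *Apoe*. *Sox10* was highest in the library labelled TRKC+/-. In both mutant libraries *Kcnj10* was above and *Gfap* below both WT pools, as were 15.9% and 16.2% of all genes tested.

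On the NCBIM37 assembly all 8 are annotated as protein-coding genes. *Glul* lies at chr1:155747074-155756853 and *Kcnj10* at chr1:174271341-174304216, both on the plus strand. *Fabp7* at chr10:57504687-57508256 and *S100b* at chr10:75716598-75723904 are also on the plus strand. *Apoe* at chr7:20281458-20284515, *Gfap* at chr11:102748650-102762226, *Slc1a3* at chr15:8584124-8660764 and *Sox10* at chr15:78985343-78994920 are on the minus strand. The deposited tables hold 1 transcript for each gene except *Gfap*, which has 2.

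The 250 bases upstream of the annotated start are shown for the members whose values the comparisons below turn on, *Fabp7* and *S100b*, which differed most between the WT pools, and *Gfap*, which was lower than both WT pools in both mutant libraries. The sequences are from RefSeq on GRCm38.p6, 5′ to 3′ on the strand of the gene, and cover chr10:57784673-57784922 (plus strand), chr10:76253586-76253835 (plus strand) and chr11:102897201-102897450 (minus strand). Capitals mark the letters TGGGAA, read on the opposite strand as TTCCCA, which is the core bound by the Notch effector RBPJ, and the letters ACAAT, read on the opposite strand as ATTGT, which is a core bound by SOX factors.
Fabp7: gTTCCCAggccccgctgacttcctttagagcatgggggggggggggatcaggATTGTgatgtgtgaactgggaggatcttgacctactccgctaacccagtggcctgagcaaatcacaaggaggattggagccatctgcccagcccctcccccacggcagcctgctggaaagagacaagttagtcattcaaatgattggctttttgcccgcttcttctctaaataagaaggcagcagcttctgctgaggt
S100b: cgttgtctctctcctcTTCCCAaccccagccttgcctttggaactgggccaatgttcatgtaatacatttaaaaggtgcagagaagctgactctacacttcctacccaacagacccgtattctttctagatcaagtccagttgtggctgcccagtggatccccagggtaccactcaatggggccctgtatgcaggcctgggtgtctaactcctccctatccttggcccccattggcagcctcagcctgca
Gfap: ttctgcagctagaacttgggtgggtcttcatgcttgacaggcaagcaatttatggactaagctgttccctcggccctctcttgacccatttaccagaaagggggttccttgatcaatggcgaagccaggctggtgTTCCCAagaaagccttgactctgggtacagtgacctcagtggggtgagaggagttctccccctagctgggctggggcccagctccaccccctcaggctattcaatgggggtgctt
The letters TGGGAA were found once in each of these windows, at bases -249 to -244 from the start in *Fabp7*, -234 to -229 in *S100b* and -115 to -110 in *Gfap*. They were in 3 of the 9 windows found for the members, against 21.6% of all 32817 promoter windows searched on both strands. ACAAT was in 3 of 9 windows and in 27.7% of all windows, the related SOX letters ACAAAG in 1 of 9 and in 16.5%, and TATAAA in 2 of 9 and in 12.4%. None of these motifs overlaps another in the windows shown. G and C made up 54.8% of the *Fabp7* window, 53.6% of the *S100b* window and 55.6% of the *Gfap* window. Windows were found for 7 of the 8 members, and *Sox10* has none in the table used. These matches are a description of the letters, and binding was not measured.

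Each library held between 8665955 and 8894985 reads on genes. *Ntrk3*, the gene of TRKC, was at 2.45 and 2.52 FPKM in WT_1 and WT_2, 2.72 FPKM in the library labelled TRKC+/- and 2.32 FPKM in AdNTF3-Tg. It was not lower in the library labelled TRKC+/- than in WT (edgeR quasi-likelihood log2 fold change 0.15, 95% interval -0.41 to 0.71, adjusted p = 0.999), so the genotype of that library rests on its label. In a separate measurement the paper reports lower *Trkc* expression in SG of TRKC+/- mice than in their WT littermates. The NT-3 gene *Ntf3* had 2 reads in the library labelled TRKC+/- and 0 reads in the other 3, all under the floor of 3 reads. The pools also differed in genes of skeletal muscle. The summed level of 8 skeletal muscle genes was 99.9 FPKM in WT_1, 3.37 FPKM in WT_2, 46.1 FPKM in the library labelled TRKC+/- and 35.3 FPKM in AdNTF3-Tg, with none of the 8 at 0 in any library. Which cells this RNA came from was not tested.

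The 8 satellite glia genes held 25442 reads in WT_1, 22765 in WT_2, 26436 in the library labelled TRKC+/- and 23219 in AdNTF3-Tg. These are 0.294%, 0.257%, 0.297% and 0.264% of the reads on genes. Levels between genes are compared in FPKM (fragments per kilobase of transcript, scaled to the library), which is per length. In that unit the order was the same in all 4 libraries for *Apoe*, *Fabp7*, *Glul* and *Sox10*, from the highest down, and for *Gfap* and *Slc1a3* at the bottom, and these members did not overlap with their neighbours across libraries. Only *Kcnj10* and *S100b* changed places, with *S100b* the higher of the pair in WT_1 and *Kcnj10* the higher in the other 3 libraries. *Apoe* stood 522 to 758 times above *Slc1a3*.

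**Figure D1:**
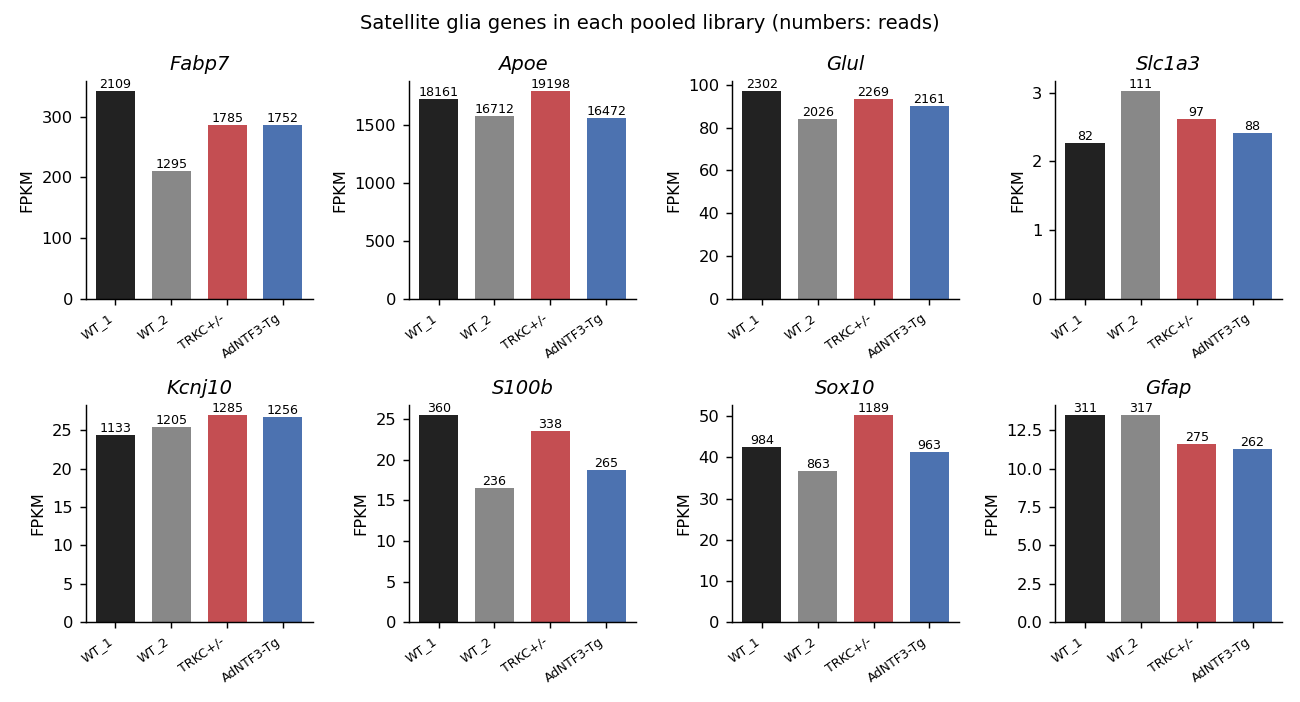
Level of each of the 8 satellite glia genes (FPKM, linear axis from 0, a separate scale for each gene) in the 4 pooled libraries, with the reads behind each bar printed above it. There is 1 library per bar and no error bar. *Fabp7* and *S100b* are highest in WT_1 and lowest in WT_2, with both mutants between, *Sox10* is highest in the library labelled TRKC+/- at 50.3 FPKM, and *Gfap* is lower in both mutants than in both WT pools.

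The lineage factor *Sox10* was at 42.5 FPKM in WT_1, 36.8 FPKM in WT_2, 50.3 FPKM in the library labelled TRKC+/- and 41.3 FPKM in AdNTF3-Tg, from 984, 863, 1189 and 963 reads. The library labelled TRKC+/- was above both WT pools and AdNTF3-Tg lay between them. Against the WT mean of 39.7 ± 4.04 FPKM (SD, n = 2) the log2 fold change was 0.34 in the library labelled TRKC+/-. In the edgeR quasi-likelihood fit over all genes the log2 fold change was 0.34 with a standard error of 0.111, and the 95% interval ran from 0.08 to 0.60, with an unadjusted p of 0.0162 and an adjusted p of 0.999. At an unadjusted p under 0.05 that comparison called 1.93% of all genes tested, and *Sox10* was the 1 member among them. With DESeq2 the unadjusted p of *Sox10* was 0.0895. In AdNTF3-Tg the edgeR log2 fold change was 0.06 (95% interval -0.20 to 0.32, adjusted p = 0.933). The direct difference, AdNTF3-Tg against the library labelled TRKC+/-, was -0.28 (95% interval -0.58 to 0.02, adjusted p = 0.940).

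*Sox10* is also expressed by Schwann cells and melanocytes, and in bulk ganglia fewer cells of a type and less RNA per cell cannot be told apart. Of the 12 Schwann cell genes none was at 0 in any library. Their summed level was 613 to 633 FPKM in the WT pools, 650.1 FPKM in the library labelled TRKC+/- and 612 FPKM in AdNTF3-Tg. Of the 12, 5 lay above both WT pools and 2 below in the library labelled TRKC+/-, where 32.3% of all genes lay above and 30.8% below. In AdNTF3-Tg 3 lay above and 4 below, where the shares of all genes were 34.3% and 34.5%. *Pmp22*, a myelin protein and the most abundant of the list, was at 358 and 378 FPKM in WT_1 and WT_2 and at 361 FPKM in both mutants. *Mag*, which encodes the myelin-associated glycoprotein, was at 6.15 and 4.31 FPKM in WT_1 and WT_2, 5.88 FPKM in the library labelled TRKC+/- and 3.13 FPKM in AdNTF3-Tg. *Cldn19*, a claudin of the Schwann cell, had the largest change in the library labelled TRKC+/-, at 1.34 FPKM against 0.82 and 0.38 FPKM in WT_1 and WT_2, but its reads were 19 against 22 and 14. Of the 6 melanocyte genes, *Tyr*, which encodes tyrosinase, was at 9.11 and 6.42 FPKM in WT_1 and WT_2, 6.63 FPKM in the library labelled TRKC+/- and 5.68 FPKM in AdNTF3-Tg. *Mitf* had 65 to 100 reads and *Dct* 15 to 18, while *Tyrp1* and *Pmel* had between 0 and 7 reads in every library and *Mlana* was listed in none. The part of Schwann cells and melanocytes in the *Sox10* value was not tested.

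Of *Kcnj10*, *Glul* and *Slc1a3*, the genes of potassium and glutamate handling, *Kcnj10* differed least between the WT pools. It was at 24.3 FPKM in WT_1, 25.5 FPKM in WT_2, 27.0 FPKM in the library labelled TRKC+/- and 26.7 FPKM in AdNTF3-Tg. Both mutant libraries were above both WT pools, by a log2 fold change of 0.11 and 0.10 against the WT mean of 24.9 ± 0.792 FPKM (SD, n = 2). In the edgeR fit the log2 fold change was 0.11 with a 95% interval from -0.10 to 0.33 in the library labelled TRKC+/- (adjusted p = 0.999) and 0.10 with an interval from -0.12 to 0.32 in AdNTF3-Tg (adjusted p = 0.857). A change of more than 0.33 upward lies outside both intervals. The *Kcnj10* transcript has 5407 bases, and over the 4087 genes tested of 4000 bases or more the median log2 fold change was 0.01 in the library labelled TRKC+/- and 0.08 in AdNTF3-Tg, near the value of *Kcnj10* in the latter. The part of length was not tested.

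*Glul* was at 97.0 FPKM in WT_1, 84.3 FPKM in WT_2, 93.6 FPKM in the library labelled TRKC+/- and 90.3 FPKM in AdNTF3-Tg. Both mutant libraries lay between the WT pools. The edgeR log2 fold change was 0.04 in the library labelled TRKC+/- (95% interval -0.19 to 0.27) and -0.00 in AdNTF3-Tg (95% interval -0.23 to 0.23). *Slc1a3* was at 2.27 FPKM in WT_1, 3.02 FPKM in WT_2, 2.62 FPKM in the library labelled TRKC+/- and 2.41 FPKM in AdNTF3-Tg, from only 82, 111, 97 and 88 reads. It too lay between the WT pools in both mutants, and its edgeR intervals, -0.63 to 0.60 and -0.75 to 0.49, were the widest of the 8. The uptake gene and the conversion gene of the glutamate cycle were far apart in level, and a difference from WT was not detectable for either with these libraries.

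*Fabp7* was at 342 FPKM in WT_1, 211 FPKM in WT_2, 286 FPKM in the library labelled TRKC+/- and 287 FPKM in AdNTF3-Tg, from 2109, 1295, 1785 and 1752 reads. The WT pools were the extremes, and both mutants lay near the WT mean of 276 ± 92.5 FPKM (SD, n = 2). WT_1 was 1.62-fold above WT_2. In the edgeR fit the log2 fold change was 0.04 in both mutants, with 95% intervals from -0.50 to 0.59 in the library labelled TRKC+/- (adjusted p = 0.999) and from -0.50 to 0.58 in AdNTF3-Tg (adjusted p = 0.979). Against a single WT pool the direction turned. The log2 fold change of the library labelled TRKC+/- was -0.26 against WT_1 and 0.44 against WT_2, and that of AdNTF3-Tg was -0.25 and 0.44.

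*Apoe* was at 1721 FPKM in WT_1, 1575 FPKM in WT_2, 1788 FPKM in the library labelled TRKC+/- and 1561 FPKM in AdNTF3-Tg, from 18161, 16712, 19198 and 16472 reads. It ranked 13, 13, 11 and 12 among all genes in those libraries. The library labelled TRKC+/- was above and AdNTF3-Tg below both WT pools, but the WT pools themselves were 1.09-fold apart. In the edgeR fit the log2 fold change was 0.11 in the library labelled TRKC+/- (95% interval -0.04 to 0.27, adjusted p = 0.999) and -0.08 in AdNTF3-Tg (95% interval -0.24 to 0.07, adjusted p = 0.832). The direct difference, AdNTF3-Tg against the library labelled TRKC+/-, was -0.20 with a 95% interval from -0.37 to -0.02 and an unadjusted p of 0.0313, and the edgeR adjusted p was 0.940. That contrast called 4.68% of all genes at an unadjusted p under 0.05, and 0.00706% (1 gene, *Ucp1*) at an adjusted p under 0.05. *Apoe* was the 1 member among the first, and none of the 8 was among the second. The *Apoe* transcript has 1266 bases. In the 3169 genes tested of 1000 to 2000 bases, the median log2 change was -0.02 in the library labelled TRKC+/- and -0.09 in AdNTF3-Tg. The part of length in the *Apoe* values was not tested.

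*Apoe* is also made by macrophages. Of 12 macrophage genes none was at 0 in any library, and their summed level was 323 and 288 FPKM in WT_1 and WT_2, 265 FPKM in the library labelled TRKC+/- and 228 FPKM in AdNTF3-Tg. AdNTF3-Tg, the library lowest in *Apoe*, was also lowest in macrophage genes. The library labelled TRKC+/-, highest in *Apoe*, was below both WT pools in this sum, but between them, at 178 FPKM against 198 and 166 FPKM in WT_1 and WT_2, without the most abundant gene, the lysozyme gene *Lyz2*. *Lyz2* was at 125 and 122 FPKM in WT_1 and WT_2, 87.5 FPKM in the library labelled TRKC+/- and 83.7 FPKM in AdNTF3-Tg. In AdNTF3-Tg 0 of the 12 lay above both WT pools and 8 below, where 34.3% of all genes lay above and 34.5% below. In the library labelled TRKC+/- 3 lay above and 4 below, where the shares of all genes were 32.3% and 30.8%. In that library *Trem2*, a receptor of macrophages, met the size rule given below, higher, from 38 reads against 23 and 22. *Lyz2* met the same rule in AdNTF3-Tg, lower, from 729 reads against 1092 and 1070 in WT_1 and WT_2. In the library labelled TRKC+/- its log2 fold change was -0.51 against WT_1 and -0.48 against WT_2, just short of the rule. *C1qa*, a complement subunit made by macrophages, was at 52.4, 42.1, 45.0 and 34.1 FPKM in WT_1, WT_2, the library labelled TRKC+/- and AdNTF3-Tg. The part of macrophages in the *Apoe* level was not tested.

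*S100b* was at 25.5 FPKM in WT_1, 16.6 FPKM in WT_2, 23.5 FPKM in the library labelled TRKC+/- and 18.7 FPKM in AdNTF3-Tg, from 360, 236, 338 and 265 reads. As with *Fabp7*, the WT pools were the extremes, 1.54-fold apart, and both mutants lay between them. The edgeR log2 fold change was 0.16 in the library labelled TRKC+/- (95% interval -0.38 to 0.70) and -0.17 in AdNTF3-Tg (95% interval -0.73 to 0.38). Against WT_2 alone the library labelled TRKC+/- was higher by a log2 fold change of 0.50, and against WT_1 alone AdNTF3-Tg was at -0.45.

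*Gfap* was the member on which the WT pools were closest. It was at 13.5 FPKM in both WT pools, 11.6 FPKM in the library labelled TRKC+/- and 11.3 FPKM in AdNTF3-Tg, from 311 and 317 reads in WT_1 and WT_2 and 275 and 262 reads in the mutants. Both mutant libraries were below both WT pools. The edgeR log2 fold change was -0.22 in the library labelled TRKC+/- with a standard error of 0.142 (95% interval -0.54 to 0.11, adjusted p = 0.999). In AdNTF3-Tg it was -0.26 with a standard error of 0.143 (95% interval -0.59 to 0.07, adjusted p = 0.817). The mutants share the same WT controls, so these values are not independent of each other. The closeness of the WT pools is also no measure of spread, since counting error alone allows a log2 ratio between them from -0.23 to 0.23.

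Over the list, 0 of 8 members were called by edgeR at an adjusted p under 0.05 in either mutant. This was against 0.00706% of all genes tested (1 gene, *Ucp1*) in the library labelled TRKC+/- and 0% in AdNTF3-Tg. At an unadjusted p under 0.05, 1 of 8 members passed in the library labelled TRKC+/- and 0 of 8 in AdNTF3-Tg, where 832 genes (5.88%) passed. DESeq2 called 0 of 8 members in either comparison, adjusted or not, and over all genes it called 2 and 0 at an adjusted p under 0.05 and 22 and 62 at an unadjusted one. The lone mutant pools have no spread of their own in these fits, which assume that they vary like the WT pools.

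The size rule of the study's methods, 0.5 or more on the log2 scale in either direction, was applied here to FPKM with 0.1 FPKM added and had to hold against both WT pools. By this rule 0 of 8 members were higher and 0 of 8 lower in either mutant. Among all genes tested 1.14% were higher and 1.8% lower in the library labelled TRKC+/-, and 1.6% were higher and 2.89% lower in AdNTF3-Tg. Between the WT pools the same rule took 2 of 8 members, *Fabp7* and *S100b*, both higher in WT_1, against 6.32% of genes higher and 4.42% lower in WT_1.

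A weaker description counts genes whose counting interval excludes no change against both WT pools. *Apoe* and *Sox10* met it in the library labelled TRKC+/-, both higher, where 2.52% of genes did so upward and 2.3% downward. *Gfap* met it in AdNTF3-Tg, lower, where 5.25% of genes did so upward and 5.76% downward. Between the WT pools the interval excluded no change for 5 of 8 members, *Fabp7*, *Apoe*, *Glul*, *S100b* and *Sox10*, all higher in WT_1, and for 22.2% of all genes in either direction. These intervals hold counting error only and none of the spread between pools.

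Without any interval, the library labelled TRKC+/- lay outside the WT pools for 4 members, with *Apoe*, *Kcnj10* and *Sox10* above and *Gfap* below. Of all genes 32.3% lay above and 30.8% below. AdNTF3-Tg lay outside for 3 members, with *Kcnj10* above and *Apoe* and *Gfap* below, and of all genes 34.3% lay above and 34.5% below. Both mutants were above both WT pools for 1 member, *Kcnj10*, and below for 1 member, *Gfap*, against the 15.9% and 16.2% of all genes. The median log2 fold change of the 8 members was 0.08 in the library labelled TRKC+/- and -0.04 in AdNTF3-Tg, and 0.17 for WT_1 against WT_2. The medians over all genes tested were 0.00, -0.00 and 0.01.

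**Figure D2:**
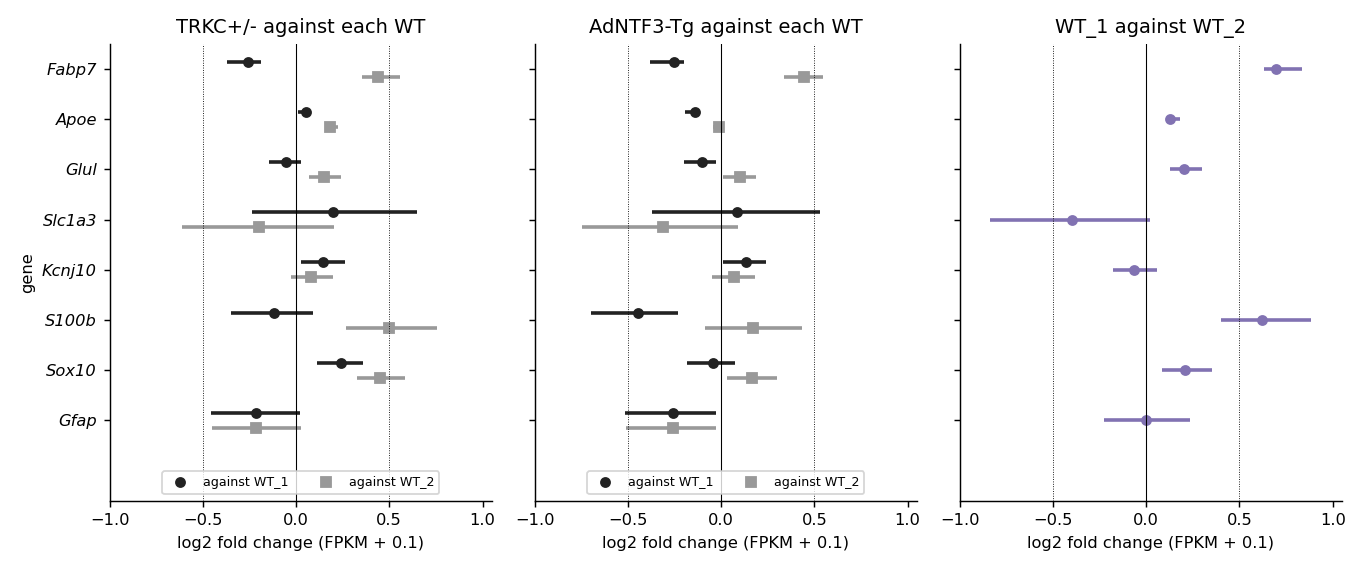
Log2 fold change (FPKM + 0.1) of the 8 members for each mutant against WT_1 (black circles) and WT_2 (grey squares), and for WT_1 against WT_2 (right). Horizontal lines are 95% counting intervals of the ratio of reads per library total, which hold no spread between pools, and dotted lines mark 0.5 in either direction. *Fabp7* lies at -0.26 and 0.44 against the 2 WT pools in the library labelled TRKC+/-, while *Sox10* lies at 0.24 and 0.45 there and *Gfap* at -0.26 against both in AdNTF3-Tg.

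The WT pools are of 1 genotype, but the study describes respective WT controls for each mutant line, so their differences can hold line and cohort as well as the spread between pools. WT_1 was higher than WT_2 by a log2 ratio of 0.70 in *Fabp7* (counting interval 0.63 to 0.83), 0.62 in *S100b* (0.40 to 0.88), 0.21 in *Sox10* (0.09 to 0.35), 0.20 in *Glul* (0.13 to 0.30) and 0.13 in *Apoe* (0.12 to 0.18). *Gfap* at -0.00 and *Kcnj10* at -0.06 were alike in level between the pools within counting error, and *Slc1a3* at -0.40 had an interval from -0.84 to 0.02. Marker genes of other cells also differed between the pools. Erythrocyte genes summed to 172 FPKM in WT_1 and 65.2 FPKM in WT_2, with 1 of the 5 listed in no library, and to 146 and 88.0 FPKM in the library labelled TRKC+/- and AdNTF3-Tg. Fibroblast genes summed to 324 and 248 FPKM in WT_1 and WT_2 and to 301 and 279.5 FPKM in the mutants, with 0 of 6 at 0. The muscle, erythrocyte and fibroblast sums and the members *S100b* and *Glul* all put the 4 libraries in the same order. The sums of the Schwann cell, neuron, macrophage, endothelial, adipocyte, melanocyte and central glia lists gave other orders. So did the other members, *Fabp7* among them. The part of such cells in the *Fabp7*, *S100b* and *Glul* values was not tested.

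The members other than *Glul* were also set beside related genes, a chosen set for each and not the whole family. In 3 of these sets the member was the leading gene. *Sox10* made up 93.7% to 96.3% of the summed FPKM of the SOXE factors, with *Sox8* at 0.96 to 2.21 FPKM and *Sox9* at 0.44 to 1.03 FPKM. *Sox8*, which can share functions with *Sox10* in glia, was at 1.25 and 0.96 FPKM in WT_1 and WT_2, 2.21 FPKM in the library labelled TRKC+/- and 1.74 FPKM in AdNTF3-Tg, from 32, 25, 58 and 45 reads. It met the size rule against both WT pools in the library labelled TRKC+/-. *Kcnj10* made up 57.2% to 62.3% of the 5 inward rectifier genes and stood 14.2 to 21.4 times above *Kcnj16*, the subunit that joins it in heteromeric channels. *Apoe* made up 75.9% to 79.5% of its set, 3.96 to 5.14 times above *Apod*, the next.

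*Slc1a3*, *S100b* and *Gfap* were minor forms among the related genes listed. *Slc1a3* ranked 4 of 6 among the SLC1 transporters with 2.72% to 3.59% of their sum, and the neutral amino acid transporters *Slc1a5* and *Slc1a4* stood 14.0 to 21.6 and 10.3 to 12.2 times above it. It was still 1.79 to 2.26 times above *Slc1a2*, the other glial glutamate transporter, which is the main form in astrocytes. *S100b* was the lowest of the 8 listed S100 genes in every library, with 1.02% to 1.62% of their sum, and *S100a10* stood 23.3 to 35.9 times above it. *Gfap* ranked 3 of 5 among intermediate filament genes with 0.680% to 0.815% of the sum, under *Prph*, the filament of peripheral neurons, which stood 67.0 to 79.6 times above it, and under *Vim*.

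*Fabp7* ranked 2 of 4 among the listed fatty acid-binding proteins in every library but WT_2, where it ranked 3. *Fabp5* was at 445 and 472 FPKM in WT_1 and WT_2 and at 403 and 392 FPKM in the library labelled TRKC+/- and AdNTF3-Tg. *Fabp3* was at 121 FPKM in both WT pools and at 98.6 and 105 FPKM in the mutants. *Fabp4*, an adipocyte and endothelial gene, was at 244 and 225 FPKM in WT_1 and WT_2 and at 134 and 173 FPKM in the mutants. All 3 were below both WT pools in both mutants, and *Fabp7* was between them. Short transcripts were lower as a class, with a median log2 fold change of -0.08 in the library labelled TRKC+/- and -0.18 in AdNTF3-Tg over the 946 genes tested that are under 1000 bases. The *Fabp7* transcript, of 762 bases, is in that class, and the part of length in these values was not tested.

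**Figure D3:**
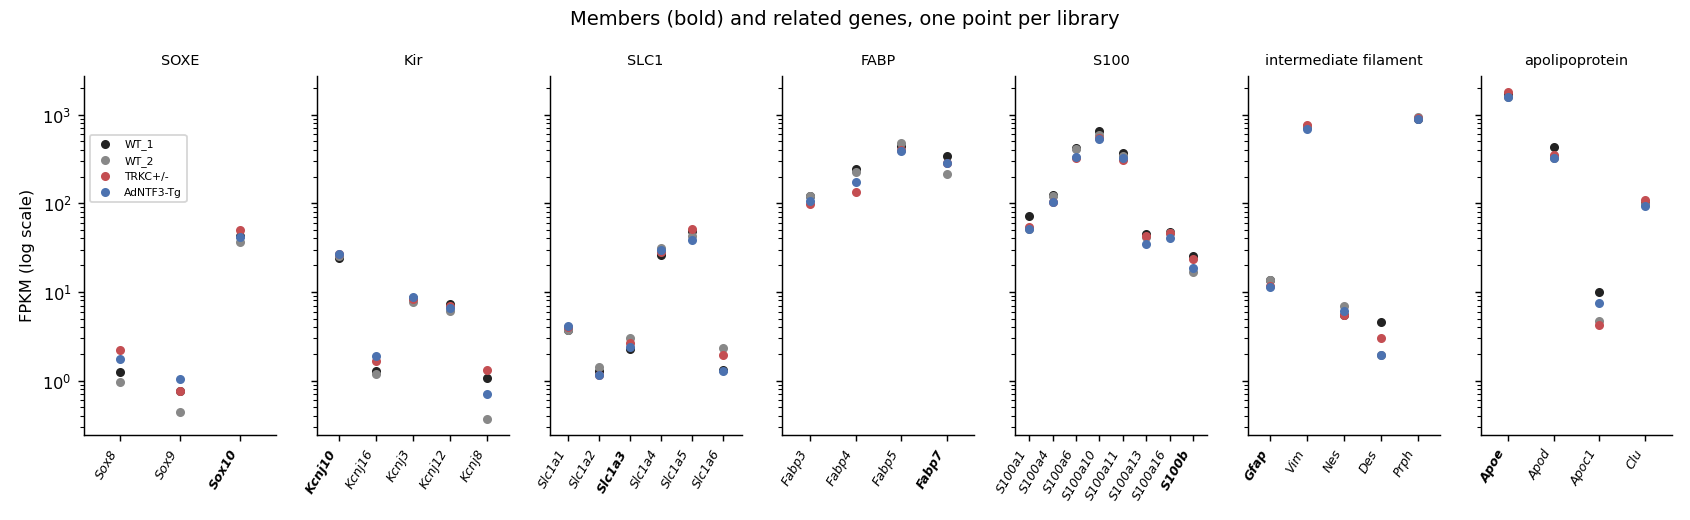
FPKM on a log axis of each member (bold) and its related genes, with 1 point per library. *Sox10*, *Kcnj10* and *Apoe* lead the genes drawn with them, *S100b* is the lowest of the 8 S100 genes chosen, and *Slc1a3* lies under *Slc1a4* and *Slc1a5*. Ranks hold among the genes drawn only.

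To place the members in a wider programme, 35 other genes of satellite glia were listed, of which 34 were tested. *Scrg1*, with 1 to 5 reads, was not. No gene of the 34 was called by edgeR at an adjusted p under 0.05 in either mutant, and 2 passed at an unadjusted p under 0.05 in each. Of all genes tested, 1.93% passed the latter in the library labelled TRKC+/- and 5.88% in AdNTF3-Tg. The 34 had a median log2 fold change of 0.07 in the library labelled TRKC+/-, 0.07 in AdNTF3-Tg and 0.00 for WT_1 against WT_2. Their summed level was 3391 and 3269 FPKM in WT_1 and WT_2, 3309 FPKM in the library labelled TRKC+/- and 3194 FPKM in AdNTF3-Tg. In the library labelled TRKC+/- 19 of the 34 lay above both WT pools and 4 below, and in AdNTF3-Tg 15 lay above and 7 below, beside the shares of all genes given above.

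By role, the ion handling genes had log2 fold changes from -0.07 to 0.40 in the library labelled TRKC+/- and from -0.13 to 0.56 in AdNTF3-Tg. *Kcnj16* was at 1.29 and 1.19 FPKM in WT_1 and WT_2, 1.67 FPKM in the library labelled TRKC+/- and 1.88 FPKM in AdNTF3-Tg, from 40, 38, 54 and 60 reads. It and *Lcn2*, an injury gene with 7 to 13 reads, were the 2 of the list that met the size rule, both in AdNTF3-Tg. *Gja1*, the connexin that couples satellite glia, was at 3.39 to 3.79 FPKM.

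The 9 lineage genes had a median of 0.09 in the library labelled TRKC+/- and 0.14 in AdNTF3-Tg. *Ngfr*, the low-affinity neurotrophin receptor and the most abundant of them, was at 316 and 360.2 FPKM in WT_1 and WT_2, 318 FPKM in the library labelled TRKC+/- and 339.8 FPKM in AdNTF3-Tg, between the WT pools in both. *Lgi4*, a secreted glial factor, was at 93.7 and 99.7 FPKM in WT_1 and WT_2, 106 FPKM in the library labelled TRKC+/- and 89.5 FPKM in AdNTF3-Tg. *Cdh19*, a cadherin of the Schwann cell and satellite glia lineage, was at 37.7 and 34.9 FPKM in WT_1 and WT_2 and at 40.0 and 41.7 FPKM in the mutants. *Foxd3*, a neural crest factor, was at 8.48 and 10.3 FPKM in WT_1 and WT_2 and at 11.9 and 10.4 FPKM in the mutants. *Sox2* ran from 3.87 FPKM in WT_1 to 5.98 FPKM in AdNTF3-Tg, with 81 to 126 reads.

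The 6 lipid genes had a median of -0.10 in the library labelled TRKC+/- and 0.01 in AdNTF3-Tg. *Apod*, which encodes another glial lipid carrier, was at 435 FPKM in WT_1 and at 325, 348 and 323 FPKM in WT_2, the library labelled TRKC+/- and AdNTF3-Tg, highest in WT_1. *Dbi*, which encodes the acyl-CoA-binding protein, was at 590.1 and 521 FPKM in WT_1 and WT_2 and at 495 and 476 FPKM in the mutants. *Fasn*, another of the lipid genes, was above both WT pools in both mutants. It was at 78.36 and 71.05 FPKM in WT_1 and WT_2, 79.78 FPKM in the library labelled TRKC+/- and 83.89 FPKM in AdNTF3-Tg. *Abca1*, a cholesterol exporter that loads apolipoprotein E, was at 5.01 and 4.93 FPKM in WT_1 and WT_2, 4.21 FPKM in the library labelled TRKC+/- and 5.03 FPKM in AdNTF3-Tg. *Vim*, the most abundant gene of the list, was at 726 and 738 FPKM in WT_1 and WT_2, 761 FPKM in the library labelled TRKC+/- and 686 FPKM in AdNTF3-Tg, opposite in sign between the mutants, where *Gfap* was lower in both. *Entpd2*, the ectonucleotidase of satellite glia, was at 46.2 and 43.7 FPKM in WT_1 and WT_2, 48.0 FPKM in the library labelled TRKC+/- and 38.0 FPKM in AdNTF3-Tg. The other purine genes listed, *P2rx7* and *P2ry12*, were above both WT pools in AdNTF3-Tg. In the same order of libraries, *P2rx7* was at 4.61, 4.01, 5.69 and 5.34 FPKM and *P2ry12* at 2.87, 3.63, 2.91 and 3.7 FPKM.

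The label of the list was checked against genes of other cells. The sympathetic neuron genes, with *Th* at 2576 to 2753 FPKM, summed to 13723 to 14669 FPKM over the libraries and had a median log2 fold change of 0.04 in the library labelled TRKC+/- and 0.02 in AdNTF3-Tg. Their largest changes were of *Phox2a*, at 168 FPKM in the library labelled TRKC+/- against 152 FPKM in both WT pools, and of *Npy*, at 2181 FPKM in AdNTF3-Tg against 2733 and 2501 FPKM in WT_1 and WT_2. The 10 genes of central glia summed to 7.41 to 8.07 FPKM, most of it from *Aldh1l1* at 4.99 to 5.24 FPKM. *Olig1* and *Olig2* were listed in no library, *Mog* had 0 to 5 reads, *Gjb6* up to 2 and *Opalin* up to 1, and *Aqp4* had 23 to 34. *Slc1a2* is in both the central glia list and the list of 35 satellite glia genes, and satellite glia share several of the members with Schwann cells and central glia, so these markers do not set the cell types apart. Endothelial genes summed to 73.1 to 79.6 FPKM. Adipocyte genes summed to 385 and 349 FPKM in WT_1 and WT_2, 214 FPKM in the library labelled TRKC+/- and 281.5 FPKM in AdNTF3-Tg.

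Beside the medians of 0.08 and -0.04 of the members in the library labelled TRKC+/- and AdNTF3-Tg, the Schwann cell list had 0.18 and 0.00, the macrophage list -0.01 and -0.27, the fibroblast list 0.22 and 0.04 and the adipocyte list -0.27 and -0.39. The 1 call at an adjusted p under 0.05 in the library labelled TRKC+/-, *Ucp1*, belongs to brown fat. It was at 47.3 and 48.1 FPKM in WT_1 and WT_2, 7.80 FPKM in that library and 37.8 FPKM in AdNTF3-Tg (edgeR log2 fold change -2.62, adjusted p = 0.00205). Against it the largest edgeR value of any member was the 0.34 of *Sox10* in the same library.

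**Figure D4:**
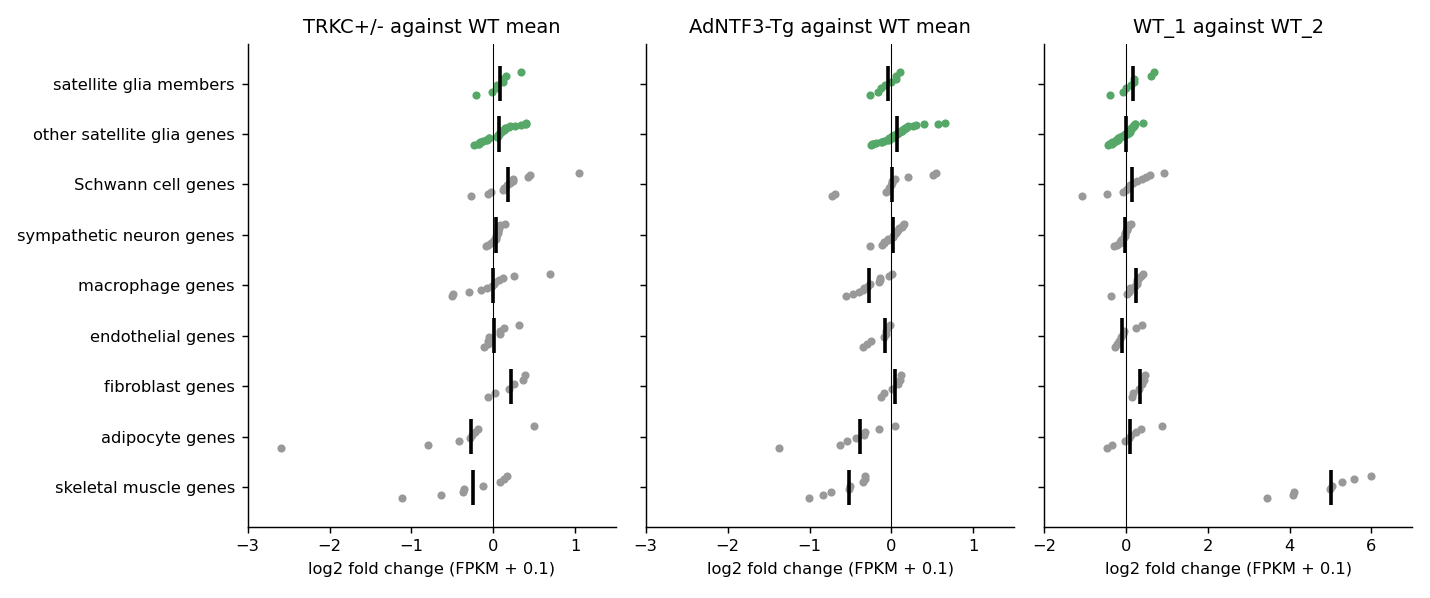
Log2 fold change (FPKM + 0.1) of each gene (points) in the satellite glia lists (green) and in lists of other cells (grey), for each mutant against the WT mean and for WT_1 against WT_2, with black bars at the medians. The axis of the right panel is wider. The 8 members have medians of 0.08, -0.04 and 0.17, and the muscle genes of 5.00 between the WT pools.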

How the data were processed

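The authors sequenced oligo(dT)-enriched RNA as 50-base single-end reads. The paper gives mm9, whereas the submitters' processing notes list RSEM and mm10, and whether the counting used strand is not given in the sources used here. Per Entrez gene, the authors deposited an expected count, not normalized, and an FPKM value, scaled to transcript length and library size. Expected counts of all 8 members were whole in all 4 libraries (within 1e-08). Symbols matched 17619 identifiers (99.7%).

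The edgeR (4.0.16) quasi-likelihood test used rounded expected counts, TMM, filterByExpr (minimum count 10), 1 residual degree of freedom and Benjamini-Hochberg adjustment over 14156 genes, and was tested on simulated data. A gene not listed in a library was taken as 0 reads. Fold changes are log2 of FPKM plus 0.1, which understates those of low genes. Counting intervals are exact Clopper-Pearson (95%) and, like the floor of 3 reads, hold counting error only. DESeq2 (1.42.0), other filters, scalings and pseudocounts, and leaving out a WT pool were alternatives.

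Groups are those of the labels, which do not say which WT pool accompanied which mutant, so both served both. The p-values measure only the spread between the 2 WT pools, which the edgeR fit moderates over all genes (6.79 prior degrees of freedom). The genes named are the 8 members, *Ntrk3* and *Ntf3*, and, for the satellite glia, Schwann cell, macrophage, melanocyte and neuron lists, the most abundant and most changed genes. The lists of other cells are given mainly as sums. Other genes beside a result, such as *Sox8* and *Cdh19*, were picked with their values known. Members and lists were chosen with earlier results of these data known. Some genes are not reported here.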

Additional observations from a re-analysis of the deposited data

How the results depend on the processing

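Of 96 member values under the alternatives, the sign differed from the reported one in 9, of which 2 were without WT_1 and 7 without WT_2, and without WT_1 the log2 fold change of *S100b* in the library labelled TRKC+/- reached 0.50. The members' median ranged from 0.00 to 0.17 in the library labelled TRKC+/- and from -0.12 to 0.083 in AdNTF3-Tg when 1 WT pool was left out.

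Over all genes, the edgeR calls in the library labelled TRKC+/- were 1 as reported, 2 with DESeq2, 2 with DESeq2 size factors and 0 without the filter. For AdNTF3-Tg against the library labelled TRKC+/- the 1 call became 0 without the filter. The size rule gave 416 genes in the library labelled TRKC+/-, 636 in AdNTF3-Tg and 1520 between the WT pools. With 1 FPKM added it gave 93, 160 and 604, without the filter 1315, 1552 and 3381, at a mean of at least 1 FPKM 211, 339 and 939, and at a cutoff of 1 it gave 74, 122 and 368. Leaving out 1 WT pool gave 1136 to 1420 genes in the library labelled TRKC+/- and 1540 to 1629 in AdNTF3-Tg. The edgeR test without a WT pool has no residual degrees of freedom and gives no test. No paired analysis was possible because each mutant group holds 1 library and shares fewer than 2 replicate numbers with WT. Counting error limits *Slc1a3*, with 82 to 111 reads, the most among the members.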
